A study of Saccharomyces cerevisiae with 17 samples.

Results

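The comparison described here sets budding yeast sampled at 21 °C while the temperature was rising in a daily temperature cycle (the label DTC 21°C increasing T, called the rewarming point) against the same yeast held at a constant 30 °C (SS 30°C). It comprises 4 of the 17 arrays of the series, 2 a side, and all 5656 genes that could be named on the array. All samples were the haploid strain CEN.PK113-7D, of genotype MATa MAL2-8C SUC2, grown on glucose without oxygen at pH 5.0 in chemostats, continuous cultures in which fresh, glucose-limited medium flowed in at a dilution rate of 0.03 per h. The rewarming samples were taken at hour 18 of a sine wave with a period of 24 h that ran between 30 and 12 °C, in the fifth and the sixth such cycle, from 2 independent cultures that also gave all other cycle samples. The constant 30 °C samples came from independent duplicate cultures at steady state. The points of the same cycle at 21 °C while the temperature fell (DTC 21°C decreasing T, hour 6, the cooling point) and at 30 °C (DTC 30°C, hour 0), with 2 arrays each, served to show where the rewarming point differs within the cycle. The labels do not tie a cycle sample to a culture, and p-values treat the arrays as independent. Temperature, temperature history and any momentary difference in growth rate change together between the rewarming point and constant 30 °C and cannot be told apart.

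Yeast devotes much of its transcription to making ribosomes. RNA polymerases I and III transcribe the ribosomal and transfer RNAs, RNA polymerase II the ribosomal protein genes, and a large set of nucleolar proteins cuts, folds and assembles the particles. Genes for these steps are known to be expressed together and to follow growth signals through the kinases TORC1 and PKA. The related transcription factors Msn2 and Msn4, which PKA restrains, act the other way and switch on genes for stress protection and for the reserve carbohydrates glycogen and trehalose. Yeast stores these when growth slows or stress sets in.

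Each array, of a yeast type made by Affymetrix, gave a linear intensity per probe set (called signal here), scaled per array before deposit. Values are therefore shares of the RNA on an array, and in such cultures fewer cells expressing a gene and less RNA per cell cannot be told apart. The median gene signal was 117.65 and 118.45 on the rewarming arrays and 135.35 and 128.75 on the constant 30 °C arrays. Background, taken from control probe sets without a target, was a signal of 13.93, and 5240 and 5190 genes exceeded it on the rewarming arrays against 5320 and 5275 at constant 30 °C. Log2 signals of replicate arrays correlated across genes at 0.984 (rewarming) and 0.978 (constant 30 °C), and arrays of different groups at 0.914 to 0.925. The difference between the 3' and the 5' probe sets of the actin gene ACT1, a sign of RNA quality, was 0.29 and 0.40 on the log2 scale in rewarming samples and 0.51 and 0.25 at constant 30 °C. The groups overlap in this measure. The median log2 signal of the 25S ribosomal RNA probe sets did not overlap, with 9.39 and 9.66 against 9.13 and 8.56, and 9.66 was the highest of the 16 arrays. Its part in the results was not tested. The number of arrays limits the precision.

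The mating type in the label was checked against its marker genes. The a-factor genes MFA1 and MFA2 gave signals of 3589.1 to 4721.2 at the rewarming point and 4082.3 to 6297.0 at constant 30 °C, and the 7 a-specific genes summed to 10732.9 and 9361.4 against 12047.9 and 14217.0. Of the 4 alpha-specific genes none was at 0. Their signals summed to 1061.3 and 950.4 at the rewarming point, against 406.1 and 465.3 at constant 30 °C, and the largest part of each sum was MF(ALPHA)1, the alpha-factor gene, at 887.4 and 739.5 against 192.3 and 279.5 (log2 difference 1.80 ± 0.24 SE, adjusted p = 0.000346). STE3, the a-factor receptor of alpha cells, had 48.9 and 65.1 against 62.3 and 59.4, and the alpha-agglutinin gene SAG1 112.3 and 128.5 against 142.2 and 117.6. The groups overlap for both. Genes of anaerobic growth were strongly expressed: the cell wall mannoprotein gene TIR1 had 9630.3 and 7703.8 at the rewarming point against 6108.1 and 7085.9, and DAN1 5722.5 and 5819.1 against 3847.0 and 4558.9 (adjusted p = 0.347 and adjusted p = 0.212). The 16 anaerobic marker genes summed to 28260.6 and 27619.0 against 25178.4 and 26812.2, with none at 0. Without TIR1 and DAN1 the other 14 summed to 12907.8 and 14096.1 at the rewarming point against 15223.3 and 15167.4. The median difference of the 16 was -0.19, with 1 higher (COX5B) and 3 lower (HEM13, SUT1 and AUS1), and 0 or 1 of the lower ones passed when any 1 of the 4 arrays was left out.

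At the rewarming point, genes for making ribosomes stood far below their level at constant 30 °C, and genes for reserve carbohydrates, stress protection, vacuolar proteolysis and alternative sugars stood above it. Of the 5656 genes, 1269 passed the test (22.4%), a limma moderated test at a Benjamini-Hochberg adjusted p under 0.05. Higher were 502 (8.88%), and 767 were lower (13.6%). A change of 2-fold or more was reached by 341 higher genes (6.03%) and 591 lower ones (10.4%). The arrays of the groups did not overlap for 3857 genes (68.2%), among them all 1269 that passed. The median difference of all genes was -0.07 on the log2 scale. Centring each array on its median instead moved the median gene up by 0.16 and turned the split into 684 higher and 594 lower (53.5% higher against 39.6%), and quantile normalization gave 582 and 659. Fewer genes passed with 1 array left out: 736 without the first and 679 without the second rewarming array, 864 without the first and 703 without the second constant 30 °C array. The mean at the rewarming point was the lowest of all 8 groups of the series for 1368 genes (24.2%) and the highest for 1165 (20.6%).

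**Figure D1:**
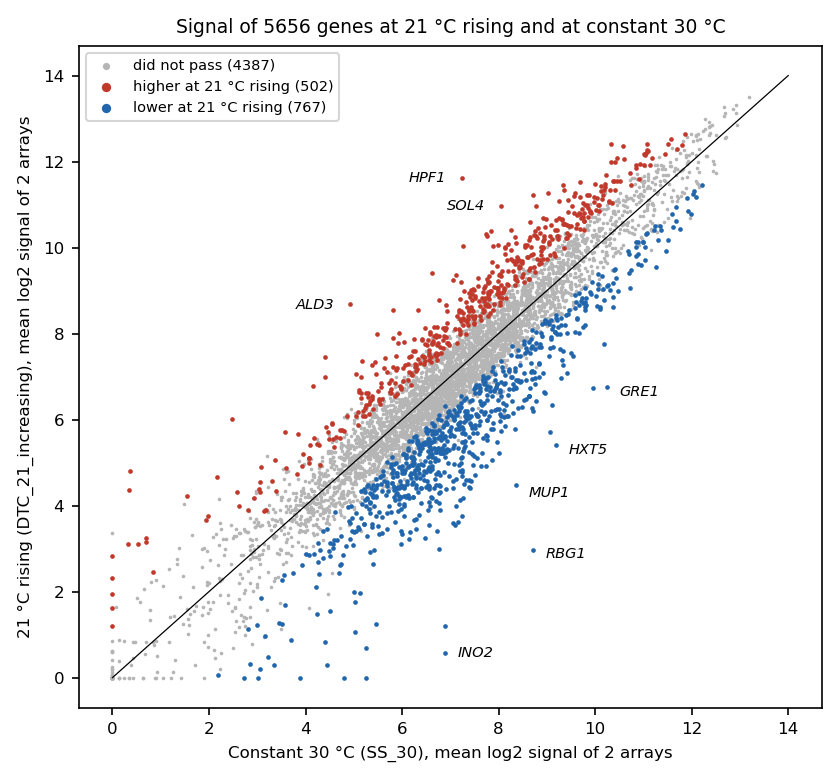
Mean log2 signal of 5656 genes at the rewarming point (vertical axis, 2 arrays) against constant 30 °C (horizontal axis, 2 arrays); each point is a gene, the line marks equal signal, red and blue points passed the test. The 502 higher and 767 lower genes lie off the line on both sides over the whole range of signal, with HPF1, SOL4 and ALD3 above it and RBG1, INO2, MUP1, HXT5 and GRE1 below it.

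The machinery that makes the small ribosomal subunit was lower almost throughout. Of 66 measured genes of the small-subunit processome, the complex that processes 18S ribosomal RNA, 63 were lower and 0 higher (95.5%), with a median log2 difference of -1.78. ENP1, a processing factor for 18S RNA, had signals of 25.6 and 18.3 at the rewarming point against 152.4 and 184.6 at constant 30 °C (-2.95 ± 0.47, adjusted p = 0.001). Both rewarming arrays thus lay far below both constant 30 °C arrays, and a lack of overlap holds for every gene that passed. KRR1, needed for the same RNA, was under background at the rewarming point, with 9.0 and 13.5 against 65.8 and 92.7, and so at least 5.61-fold lower (adjusted p = 7.49e-05). RRP36, which acts in early cleavage of the precursor, had 5.2 and 2.9 against 35.6 and 33.9 and was at least 2.49-fold lower (adjusted p = 0.000481). NSR1, the yeast nucleolin, an RNA-binding protein of the nucleolus, had 81.5 and 71.4 against 223.1 and 293.7 (-1.75 ± 0.27, adjusted p = 0.000812). The 3 members that did not pass are named after their values were seen: RRP7 (-0.73, adjusted p = 0.153), NOB1 (-0.90, adjusted p = 0.178) and RIO1, a kinase of late maturation, with 112.0 and 106.5 against 88.9 and 72.3 (0.45, adjusted p = 0.139). With any 1 of the 4 arrays left out, 53 to 60 of the 66 passed, and with all signals under 12 set to 12 the median was -1.67.

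Assembly factors of the large subunit gave the same picture: 69 of 75 were lower and 0 higher (92.0%), with a median of -1.71, and all 75 differences were negative. PUF6, an RNA-binding protein that also acts in large-subunit assembly, had 5.1 and 1.1 at the rewarming point against 54.8 and 36.0 at constant 30 °C, at least 3.19-fold lower (adjusted p = 0.000415). ARX1, which escorts the precursor particle out of the nucleus, had 11.3 and 10 against 103.0 and 109.2, at least 7.61-fold lower (adjusted p = 1.44e-05). Signals of the RNA helicase gene DBP3 were 26.9 and 17.0 against 124.2 and 232.6 (-2.99 ± 0.36, adjusted p = 0.000179). In all 3 genes every rewarming array was below every constant 30 °C array, as in every gene that passed as lower. Without 1 of the 4 arrays, 60 to 65 of the 75 passed. The mean at the rewarming point was the lowest of the 8 groups for 64 of 66 processome genes and for 73 of 75 large-subunit factors, against 24.2% of all genes.

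The polymerases that transcribe ribosomal and transfer RNA were lower in part. Of 35 genes of RNA polymerases I and III and their factors, 17 were lower and 0 higher (48.6%), with a median of -0.90. RPA49, a subunit of RNA polymerase I, had 36.5 and 25.5 at the rewarming point against 184.3 and 249.5 (-2.81 ± 0.29, adjusted p = 7.43e-05). Another subunit gene, RPA43, had 8.4 and 10.7 against 67.2 and 117.8, at least 6.39-fold lower (adjusted p = 5.77e-05), and the polymerase III subunit gene RPC25 had 10 and 8.8 against 70.0 and 72.1, at least 5.1-fold lower (adjusted p = 7.43e-05). RRN3, the factor that recruits polymerase I to its promoter, had 120.4 and 120.1 against 131.4 and 71.8, so that its groups overlap (0.31 ± 0.31, adjusted p = 0.524).

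Ribosomal protein genes and translation factors were lower by less. Of 80 cytosolic ribosomal protein genes with a probe set of their own, 46 were lower and 0 higher (57.5%), with a median of -0.81. The other 57 of 137 names had no probe set annotated to them alone, and near-identical copies that were kept may still share signal. RPL7B had 165.4 and 189.3 at the rewarming point against 604.4 and 921.5 (-2.08 ± 0.41, adjusted p = 0.00348). RPS26B had 154.0 and 155.9 against 574.9 and 730.9 (-2.06 ± 0.26, adjusted p = 0.000222), and RPL13A 599.7 and 476.1 against 1334.9 and 2153.2 (-1.67 ± 0.29, adjusted p = 0.0016). RPS22B had the highest difference of the list but did not pass, with 908.3 and 1226.4 against 664.1 and 911.6 (0.44 ± 0.25, adjusted p = 0.24). Its groups overlap. This count depended on single arrays: 26 passed without the first and 16 without the second rewarming array, 41 without the first and 15 without the second constant 30 °C array, and 26 after centring. Of 34 translation factor genes, 11 were lower and 0 higher (32.4%), with a median of -0.64, and 4 to 7 passed when any 1 of the 4 arrays was left out. GCD2, a subunit of the exchange factor eIF2B, had 25.5 and 28.9 against 78.1 and 74.2 (-1.49 ± 0.26, adjusted p = 0.00181). TIF4631, the scaffold eIF4G, had 60.1 and 53.7 against 145.5 and 160.0 (-1.43 ± 0.30, adjusted p = 0.00509). The mean at the rewarming point was the lowest of the 8 groups for 72 of 80 ribosomal protein genes and 26 of 34 translation factors.

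Purine synthesis genes were lower in part. Of 21 purine synthesis genes, 6 were lower and 0 higher (28.6%), with a median of -0.36. AAH1, adenine deaminase, had 31.7 and 28.5 at the rewarming point against 196.1 and 204.3 at constant 30 °C (-2.74 ± 0.42, adjusted p = 0.000812). GUA1, GMP synthase, had 115.0 and 133.9 against 578.2 and 681.0 (-2.34 ± 0.29, adjusted p = 0.000222), and PRS3, a subunit of phosphoribosyl pyrophosphate synthetase, 208.2 and 194.0 against 547.8 and 708.5 (-1.63 ± 0.26, adjusted p = 0.00103). Pyrimidine synthesis genes were not counted as a list. The CTP synthase gene URA7, a member of the phospholipid and inositol list, had 66.0 and 59.0 against 269.6 and 251.3 (-2.06 ± 0.25, adjusted p = 0.000221). None of these 4 genes showed overlap between the groups, which holds for every gene that passed.

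**Figure D2:**
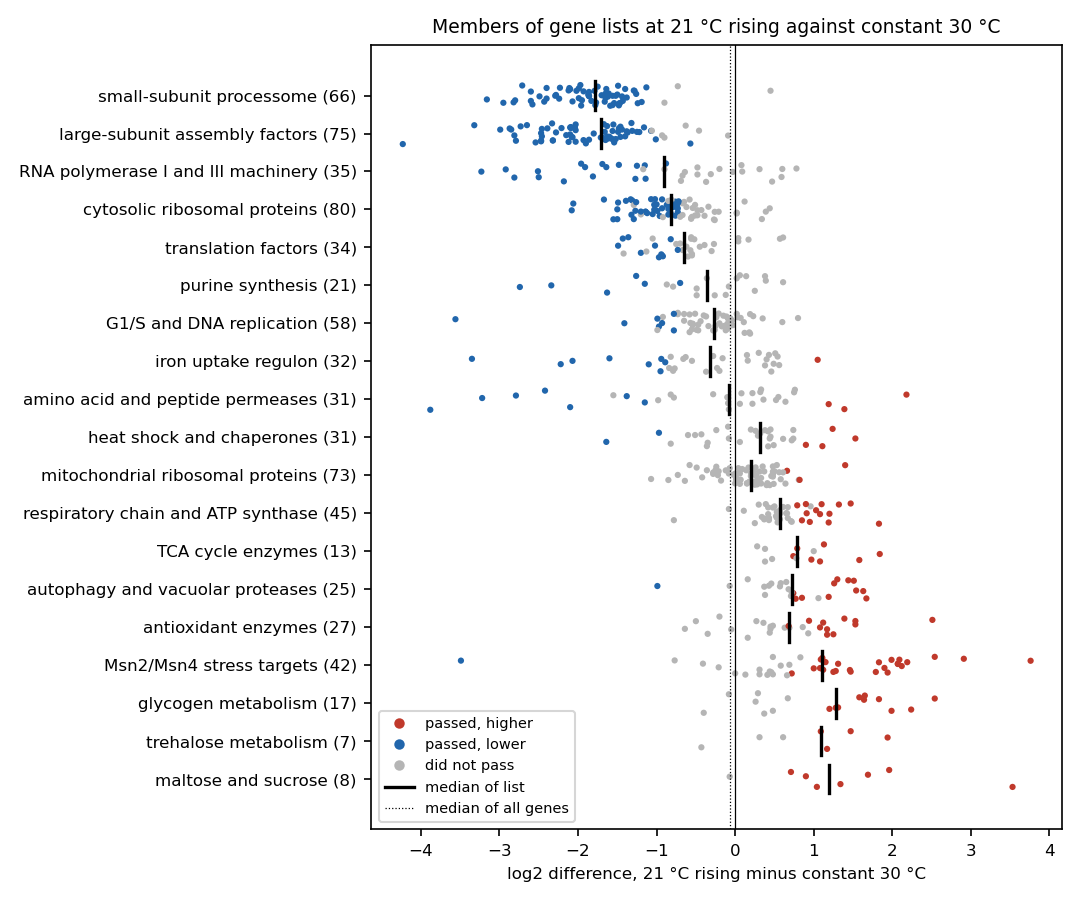
Log2 difference (horizontal axis, rewarming point minus constant 30 °C) of each measured member of 19 gene lists (rows, number of members in brackets); red and blue points passed the test, grey ones did not, black bars are list medians and the dotted line is the median of all genes. The small-subunit processome (median -1.78) and large-subunit factors (-1.71) lie almost entirely to the left, glycogen (1.28), trehalose (1.09) and Msn2/Msn4 targets (1.10) mostly to the right.

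Genes for reserve carbohydrates were higher. Of 17 glycogen genes, 10 were higher and 0 lower (58.8%), with a median of 1.28. GSY2 and GSY1, the glycogen synthases, had 1309.3 and 1356.5 against 300.9 and 174.3 (2.54 ± 0.29, adjusted p = 0.00013), and 711.7 and 603.3 against 176.3 and 109.1 (2.24 ± 0.29, adjusted p = 0.000288). GPH1, which degrades glycogen, was higher too, with 3295.7 and 2020.8 at the rewarming point against 893.2 and 473.7 (1.99 ± 0.36, adjusted p = 0.00209). Synthesis and breakdown genes thus both stood above constant 30 °C on every array. Of 7 trehalose genes, 4 were higher and 0 lower (57.1%), with a median of 1.09. TPS1, trehalose-6-phosphate synthase, had 2792.3 and 2882.5 against 1030.8 and 1021.8 (1.47 ± 0.21, adjusted p = 0.000579), and TSL1, a regulatory subunit of the same complex, 1498.6 and 1582.4 against 534.3 and 300.3 (1.94 ± 0.28, adjusted p = 0.000552). Without the second constant 30 °C array, 6 glycogen and 2 trehalose genes passed, and 2 trehalose genes passed without the first rewarming array. The mean was the highest of the 8 groups for 14 of 17 glycogen and 6 of 7 trehalose genes, against 20.6% of all genes.

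Targets of Msn2 and Msn4 were mostly higher, though the heat shock genes HSP12 and HSP26 did not pass the test. Of 42 measured targets, 25 were higher and 1 lower (59.5% and 2.38%), with a median of 1.10. SOL4, a lactonase of the pentose phosphate pathway, had 1806.2 and 2201.1 at the rewarming point against 282.0 and 251.1 at constant 30 °C (2.91 ± 0.29, adjusted p = 5.77e-05). ALD3, an aldehyde dehydrogenase, had 353.2 and 474.9 against 37.5 and 24.4 (3.76 ± 0.31, adjusted p = 2.02e-05). The lower one was GRE1, a hydrophilin gene of desiccation and osmotic stress, with 115.3 and 100.1 against 1072.3 and 1367.3 (-3.49 ± 0.27, adjusted p = 1.44e-05). HSP12, a small membrane-protecting protein, had 8389.7 and 7246.6 against 4873.0 and 5557.3 (0.58 ± 0.24, adjusted p = 0.103), and the small chaperone gene HSP26 had 3461.5 and 3832.4 against 2521.9 and 2824.9 (0.45 ± 0.23, adjusted p = 0.182). Neither passed, although the arrays of the groups do not overlap.

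Of 31 heat shock and chaperone genes, 4 were higher and 2 lower (12.9% and 6.45%), against 8.88% and 13.6% of all genes. Within this family the inducible Hsp70 genes moved apart. SSA4 had 600.9 and 693.5 at the rewarming point against 231.2 and 215.0 (1.53 ± 0.25, adjusted p = 0.00104), and SSA3 had 232.1 and 289.4 against 787.6 and 833.5 (-1.64 ± 0.31, adjusted p = 0.00239). HSP104, the disaggregase, had 1728.6 and 1858.3 against 839.5 and 686.6 (1.24 ± 0.26, adjusted p = 0.0053) and did not pass without the second constant 30 °C array. The membrane heat shock gene HSP30 had 1485.1 and 1609.7 against 2731.2 and 2739.8 (-0.82 ± 0.29, adjusted p = 0.0629). Without the second constant 30 °C array 1 of the higher chaperone genes passed, and 2 did without the second rewarming array. A list of 15 genes for the chaperonin CCT, which folds actin and tubulin, and for proteins that work with it had a median of -0.19. The 1 lower gene of this list, PAC10, encodes a subunit of the partner complex prefoldin and not of CCT. The 34 proteasome genes had a median of 0.18 with 1 higher. Neither single call was kept when any 1 of the 4 arrays was left out.

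Antioxidant and vacuolar genes joined the higher side. Of 27 antioxidant genes, 11 were higher and 0 lower (40.7%), with a median of 0.68, and 7 passed without the second rewarming array. TSA2, a peroxiredoxin, had 2341.1 and 2422.1 at the rewarming point against 377.8 and 463.4 (2.51 ± 0.31, adjusted p = 0.000237). Of 25 genes of autophagy and vacuolar proteases, 11 were higher and 1 lower (44% and 4%), with a median of 0.72, and 5 to 7 of the higher ones passed when any 1 of the 4 arrays was left out. PRC1, carboxypeptidase Y of the vacuole, had 3702.8 and 4451.1 against 1418.6 and 1144.5 (1.67 ± 0.30, adjusted p = 0.0019). The vacuolar aminopeptidase gene APE1 had 4105.4 and 4575.0 against 1521.5 and 1280.1 (1.63 ± 0.28, adjusted p = 0.00159). The highest mean of all 8 groups fell at the rewarming point for 33 of 42 Msn2/Msn4 targets, 19 of 27 antioxidant genes and 18 of 25 vacuolar genes.

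**Figure D3:**
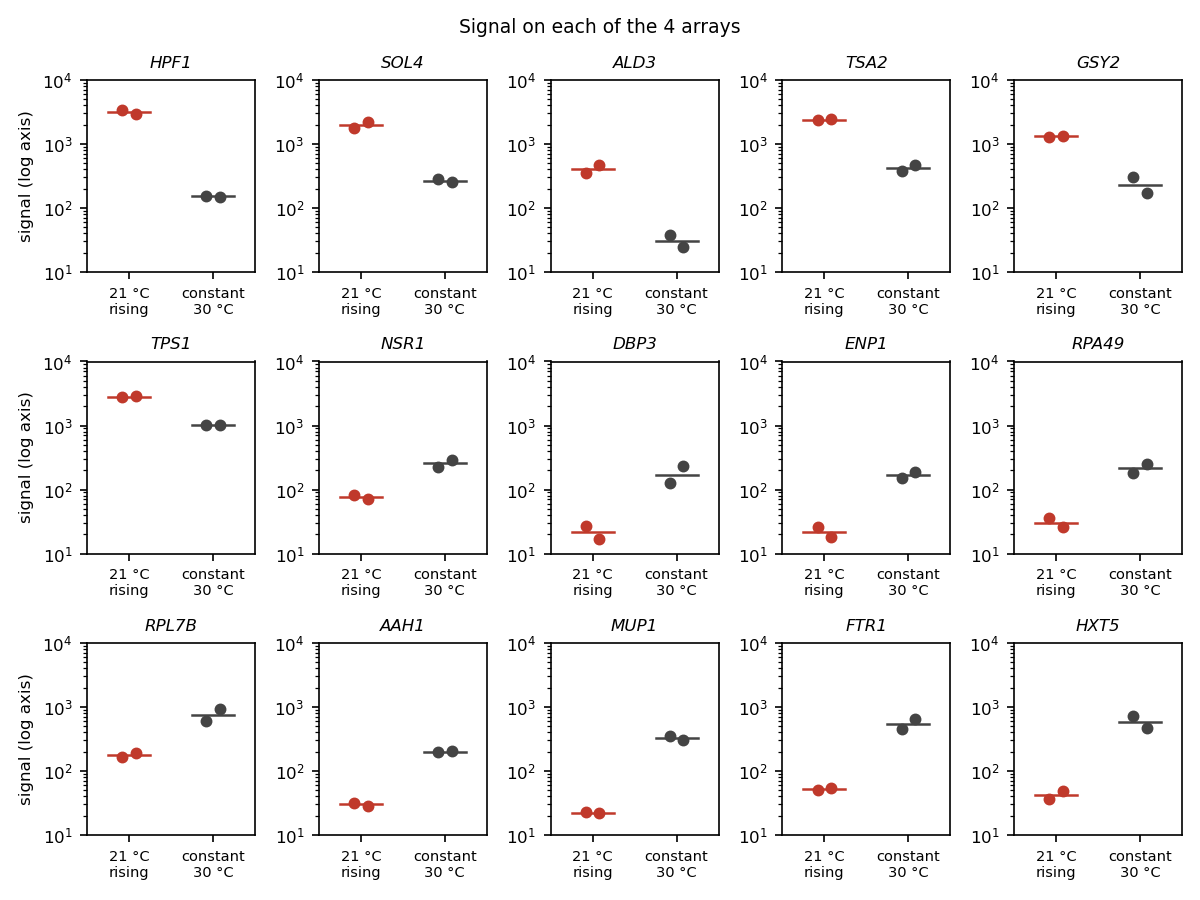
Signal on each of the 4 arrays (log axis) for 15 genes, rewarming point on the left and constant 30 °C on the right; points are single arrays and bars are means of the log2 signals. HPF1, SOL4, ALD3, TSA2, GSY2 and TPS1 are higher at the rewarming point on both arrays, and NSR1, DBP3, ENP1, RPA49, RPL7B, AAH1, MUP1, FTR1 and HXT5 are lower on both.

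Carbon metabolism showed a more uneven pattern. Among 8 measured genes of maltose and sucrose use, 7 were higher and 0 lower (87.5%), with a median of 1.19, but 3 to 5 passed when any 1 of the 4 arrays was left out. The maltose permease gene MAL31 had 2499.1 and 2475.7 at the rewarming point against 887.9 and 670.1 (1.69 ± 0.26, adjusted p = 0.000828). IMA1, an isomaltase, had 598.9 and 566.9 against 208.5 and 108.3 (1.96 ± 0.29, adjusted p = 0.000726), and its relative IMA5 had 61.2 and 68.3 against 6.8 and 4.6, at least 4.64-fold higher (adjusted p = 5.48e-05). Maltose permease and isomaltase genes have close copies, and which copy a probe set reads is uncertain. SUC2, invertase, had 2867.6 and 2721.7 against 1668.7 and 1748.8 (0.71 ± 0.22, adjusted p = 0.0337) and did not pass without any 1 of the 4 arrays or after quantile normalization.

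In a list of 22 hexose transporter, sensor and related genes 3 were higher and 3 lower (13.6% each), against 8.88% and 13.6% of all genes. The higher ones were HXT4, GLK1 and MIG3, and the lower ones HXT5, HXK2 and MIG1. Of these, only HXT4 and HXT5 encode hexose transporters. With 1 of the 4 arrays left out, 0 to 2 of the higher and 1 or 2 of the lower ones passed. HXT5, a transporter of slow-growing cells, had 37.1 and 48.3 at the rewarming point against 725.2 and 472.3 at constant 30 °C (-3.79 ± 0.33, adjusted p = 2.73e-05). By contrast HXT4, a high-affinity transporter, had 85.8 and 123.6 against 33.9 and 34.7 (1.59 ± 0.39, adjusted p = 0.0116), and it did not pass without either constant 30 °C array or without the second rewarming array. HXT6, which shares nearly all its sequence with HXT7, had 6497.4 and 6250.9 against 4430.9 and 4560.7 (0.50 ± 0.21, adjusted p = 0.112). Of 19 glycolysis genes 2 were higher and 2 lower, with a median of 0.39, and 0 of the higher and 1 of the lower ones passed when any 1 of the 4 arrays was left out. The higher and the lower glycolysis genes were 10.5% of the list each, against 8.88% and 13.6% of all genes. PFK27, which makes the glycolytic activator fructose-2,6-bisphosphate, had 19.1 and 18.5 against 76.0 and 60.3 (-1.85 ± 0.39, adjusted p = 0.00479).

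Of 13 pentose phosphate pathway genes 5 were higher and 1 lower (38.5% and 7.69%), with a median of 0.55, and 3 of the higher ones passed without the second rewarming array. The minor transketolase gene TKL2 had 1181.1 and 925.5 at the rewarming point against 242.3 and 97.1 (2.77 ± 0.42, adjusted p = 0.000799), and GND2, the minor 6-phosphogluconate dehydrogenase, 1208.3 and 1219.7 against 381.1 and 277.0 (1.90 ± 0.28, adjusted p = 0.000626). RKI1, the ribose-5-phosphate isomerase, was the lower one, with 17.7 and 12.2 against 54.0 and 67.9 (-2.04 ± 0.27, adjusted p = 0.000321). Of 20 genes of ethanol fermentation and glycerol metabolism, 9 were higher and 2 lower (45% and 10%), with a median of 0.59, and 4 or 5 of the higher ones passed when any 1 of the 4 arrays was left out. GCY1, an aldo-keto reductase that oxidizes glycerol, had 1827.1 and 2174.1 against 557.8 and 339.8 (2.19 ± 0.34, adjusted p = 0.000888).

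Genes of mitochondrial and peroxisomal oxidation, which need oxygen or serve growth on other carbon sources, were moderately higher in these cultures without oxygen. Of 13 tricarboxylic acid cycle genes 7 were higher and 0 lower (53.8%), with a median of 0.79, and 2 to 4 passed when any 1 of the 4 arrays was left out. ACO1, aconitase, had 3964.5 and 4211.1 at the rewarming point against 1647.7 and 1126.9 (1.58 ± 0.25, adjusted p = 0.00103). Of 45 genes of the respiratory chain and ATP synthase, 13 were higher and 0 lower (28.9%), with a median of 0.57, and 1 to 4 passed with an array left out. Cytochrome c1, encoded by CYT1, had 1430.9 and 1792.6 against 500.3 and 668.0 (1.47 ± 0.23, adjusted p = 0.000882), and the cytochrome c gene CYC1 had 729.5 and 763.2 against 574.5 and 689.4 (0.25 ± 0.28, adjusted p = 0.588). Of 73 mitochondrial ribosomal protein genes 3 were higher and 0 lower, with a median of 0.20, and 0 or 1 passed with an array left out. The share of mitochondrial ribosomal protein genes called higher, 4.11%, lay below the 8.88% of all genes. The cytosolic ribosomal proteins had a median of -0.81.

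Of 27 genes of gluconeogenesis and the glyoxylate cycle, 8 were higher and 1 lower (29.6% and 3.70%), with a median of 0.38, and 3 to 5 of the higher ones passed when any 1 of the 4 arrays was left out. MLS1, malate synthase, had 216.4 and 222.7 against 55.2 and 66.0 (1.86 ± 0.25, adjusted p = 0.000413), and MDH2, the cytosolic malate dehydrogenase, had 1082.6 and 1227.3 against 344.2 and 452.2 (1.55 ± 0.19, adjusted p = 0.000221). PCK1, the entry enzyme of gluconeogenesis, had 524.8 and 609.3 against 1242.2 and 986.5 (-0.97 ± 0.39, adjusted p = 0.0994). Of 22 genes of peroxisomal beta-oxidation, 5 were higher and 1 lower (22.7% and 4.55%, against 8.88% and 13.6% of all genes), with a median of 0.46. FOX2, which carries its middle steps, had 988.7 and 1117.3 against 291.4 and 193.9 (2.14 ± 0.24, adjusted p = 0.00011). CAT8, an activator of gluconeogenic genes, had 148.7 and 119.4 against 94.2 and 60.3 (0.82 ± 0.35, adjusted p = 0.113).

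Uptake genes held some of the largest falls. Of 31 amino acid and peptide permease genes, 7 were lower and 3 higher (22.6% and 9.68%), with a median of -0.08, and 0 of the higher ones passed without the second array of either group. MUP1, the high-affinity methionine permease, had 22.5 and 22 at the rewarming point against 353.7 and 305.3 (-3.88 ± 0.37, adjusted p = 5.46e-05). PTR2, which imports small peptides, had 111.7 and 102.6 against 1290.3 and 767.0 (-3.22 ± 0.30, adjusted p = 4.53e-05), and BAP3, for branched-chain amino acids, 46.5 and 29.8 against 272.2 and 242.1 (-2.79 ± 0.33, adjusted p = 0.000179). GAP1, the general permease of nitrogen-poor conditions, moved the other way with 511.3 and 661.9 against 257.0 and 190.6 (1.39 ± 0.29, adjusted p = 0.00497), and it did not pass without the second array of either group. Signals of FUI1, the uridine permease, were 13.2 and 11.3 against 140.6 and 143.1, at least 10.2-fold lower (adjusted p = 5.56e-06).

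Of 32 genes of the iron uptake regulon, 8 were lower and 1 higher (25% and 3.12%), with a median of -0.32, and 3 to 5 of the lower ones passed when any 1 of the 4 arrays was left out. The high-affinity system was among them: FTR1, the iron permease, had 50.3 and 55.1 at the rewarming point against 449.1 and 645.5 (-3.35 ± 0.23, adjusted p = 7.77e-06), and its partner oxidase gene FET3 had 22.7 and 21.9 against 103.9 and 103.4 (-2.22 ± 0.29, adjusted p = 0.000288). The phosphate transporter gene PHO84 had 28.6 and 25.1 against 108.1 and 101.8 (-1.97 ± 0.45, adjusted p = 0.00788), and did not pass without the second rewarming array. Of 11 copper genes 1 was higher and 2 lower (9.09% and 18.2%, against 8.88% and 13.6% of all genes). The copper transporter gene CTR1 had 96.6 and 110.4 against 118.8 and 107.7 (-0.13 ± 0.24, adjusted p = 0.75), and its groups overlap. Another transporter gene, CTR3, was the higher one (1.26, adjusted p = 0.00756). The lower ones, FRE1 (-0.89, adjusted p = 0.0274) and CUP2 (-0.81, adjusted p = 0.0116), did not pass after centring each array on its median.

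Lipid genes changed one by one rather than as a list. Of phospholipid and inositol genes 10.3% were higher and 17.2% lower, and of ergosterol genes 0% and 18.5%. Of all genes it was 8.88% and 13.6%. INO2, an activator of phospholipid synthesis genes, had 1.5 on both rewarming arrays against 91.8 and 155.1 at constant 30 °C, at least 8.57-fold lower (adjusted p = 1.74e-05). INO1, inositol-3-phosphate synthase and a known target of Ino2 with Ino4, had 1107.7 and 1092.0 against 356.7 and 306.5 (1.73 ± 0.34, adjusted p = 0.00308). Activator and target thus lay on opposite sides on every array. Of 29 phospholipid and inositol genes 3 were higher and 5 lower, with a median of 0.14, and 1 or 2 of the higher and 3 or 4 of the lower ones passed when any 1 of the 4 arrays was left out. Of 27 ergosterol genes 5 were lower and 0 higher, with a median of -0.00, and 1 to 3 passed when any 1 of the 4 arrays was left out. IDI1, isopentenyl diphosphate isomerase, had 77.2 and 90.4 against 263.6 and 279.8 (-1.70 ± 0.22, adjusted p = 0.000305), while ERG11, the target of azole drugs, had 3634.0 and 3508.5 against 3411.8 and 3656.7 (0.02 ± 0.19, adjusted p = 0.973). The elongase genes ELO2 and ELO3 for long fatty acids had 130.4 and 124.9 against 265.4 and 348.4 (-1.25 ± 0.22, adjusted p = 0.00166), and 564.9 and 591.1 against 1247.2 and 1416.0 (-1.20 ± 0.21, adjusted p = 0.00164). In the list of 16 fatty acid genes, which holds both elongases, 1 was higher and 3 were lower (6.25% and 18.8%). The third lower one was FAA4 (-0.94, adjusted p = 0.0373). The higher one was the acyl-CoA synthetase gene FAA1, with the largest difference of the list (3.04, adjusted p = 0.00618). OLE1, the desaturase induced by cold in yeast, had 4500.2 and 4675.8 against 4269.8 and 4381.8 (0.08 ± 0.19, adjusted p = 0.803).

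Few cell cycle genes passed against constant 30 °C. In a list of G2/M and mitotic exit genes 9.68% were higher and 3.23% lower, against 8.88% and 13.6% of all genes. Of 58 genes of the G1/S transition and DNA replication, 7 were lower and 0 higher (12.1%), a share close to that of all genes, with a median of -0.27, and 1 to 3 passed when any 1 of the 4 arrays was left out. RNR1, the large subunit of ribonucleotide reductase, had 652.2 and 547.5 at the rewarming point against 677.9 and 652.0 (-0.15 ± 0.27, adjusted p = 0.729). The histone gene HTB2 had 648.8 and 471.6 against 1056.7 and 1395.4 (-1.13 ± 0.30, adjusted p = 0.017), and did not pass without the second array of either group. CLB1, a mitotic cyclin, had 76.3 and 60.6 against 32.0 and 26.3 (1.23 ± 0.30, adjusted p = 0.0117), and did not pass without the second constant 30 °C array or the first rewarming array. Of 31 genes of G2/M and mitotic exit 3 were higher and 1 lower, with a median of 0.26, and 0 or 1 of the higher ones passed when an array was left out.

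The largest single changes lay partly outside these groups. HPF1, a mannoprotein of the cell wall, had 3354.2 and 2945.4 at the rewarming point against 154.2 and 151.2 at constant 30 °C, a 20.6-fold difference (4.36 ± 0.36, adjusted p = 1.74e-05). The glutamate decarboxylase gene GAD1 had 655.7 and 711.5 against 140.1 and 68.4 (2.80 ± 0.36, adjusted p = 0.000288), and BDH2, a putative alcohol dehydrogenase, 366.2 and 379.7 against 54.4 and 57.8 (2.73 ± 0.19, adjusted p = 7.77e-06). YGP1, a secreted glycoprotein of starved cells and not among the 12 largest rises, had 5507.8 and 5447.1 against 1313.9 and 1263.3 (2.09 ± 0.21, adjusted p = 5.7e-05). In HPF1, GAD1, BDH2 and YGP1 the replicates of a group lay closer to each other than the groups did. The test itself selects for this. Other genes among the 12 largest rises were ETP1 (4.43, adjusted p = 0.00419), MIG3 (4.02, adjusted p = 0.0152) and FAA1 (3.04, adjusted p = 0.00618). With signals under 12 set to 12, ETP1 and MIG3 fell to 1.22 and 0.78. On the falling side, RBG1, a GTPase that associates with ribosomes, had 8.0 and 7.7 against 435.7 and 401.0, at least 30.0-fold lower (adjusted p = 1.2e-07). OGG1, a DNA glycosylase for oxidized guanine, had 2.6 and 1.0 against 31.8 and 45.7, at least 2.74-fold lower (adjusted p = 0.00193). YSF3, a small splicing factor, had 0.4 and 0.5 against 27.2 and 28.4, at least 2.0-fold lower (adjusted p = 7.66e-06). For such genes the rewarming signal lay under background, so only a bound can be given.

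The cooling point shares its temperature of 21 °C with the rewarming point, and the next comparison sets these points against each other. Direction of the change, hour in the cycle, earlier temperatures and any momentary difference in growth rate differ together and cannot be told apart. More genes passed here than against constant 30 °C, 1915 of 5656 (33.9%), with 860 higher (15.2%) and 1055 lower (18.7%). Ribosome assembly again stood out, with 62 of 66 processome genes and 73 of 75 large-subunit factors lower and 0 higher, and medians of -2.43 and -2.44. NSR1 had 81.5 and 71.4 at the rewarming point against 633.7 and 800.8 at the cooling point (-3.22 ± 0.27, adjusted p = 4.69e-06). Of the ribosomal protein genes 68 of 80 were lower and 0 higher, of translation factors 24 of 34, and of purine genes 16 of 21. The Msn2/Msn4 targets were nearly all higher, 39 of 42 with 0 lower and a median of 2.35. Both comparisons use the same rewarming arrays, so they are not independent.

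Several genes that did not pass against constant 30 °C differed widely between the points at 21 °C. HSP26 had 3461.5 and 3832.4 at the rewarming point against 183.0 and 277.3 at the cooling point (4.02 ± 0.23, adjusted p = 4.97e-07), and HSP12 had 8389.7 and 7246.6 against 2135.2 and 3276.6 (1.56 ± 0.24, adjusted p = 0.000358). FMP48, a gene of a mitochondrial protein, had 44.1 and 47.7 against 1.0 and 0.8 (adjusted p = 1.21e-05), with the cooling arrays under background. TOS2, a gene of polarized growth, was under background at the rewarming point with 1.4 and 1.5 against 47.6 and 43.5 (adjusted p = 0.0012). For GRE1 the sign changed with the group compared, since 115.3 and 100.1 stood above 21.5 and 23.5 at the cooling point (2.26 ± 0.27, adjusted p = 5.31e-05) but below constant 30 °C. SSA3 did the same, with 232.1 and 289.4 against 88.0 and 84.0 at the cooling point (1.59 ± 0.31, adjusted p = 0.0017). HXT5, by contrast, had 37.1 and 48.3 against 21.9 and 30.4 at the cooling point (0.71 ± 0.33, adjusted p = 0.119). The hexose transporter gene HXT2 had 166.6 and 221.2 against 1029.4 and 911.5 (-2.34 ± 0.22, adjusted p = 1.13e-05) while its difference from constant 30 °C did not pass (-0.53, adjusted p = 0.11).

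The third comparison sets the rewarming point against 30 °C within the same cycle. It gave 1234 genes (21.8%), 498 higher (8.8%) and 736 lower (13%). With an array left out the count was 676 without the first and 589 without the second rewarming array, 803 without the first and 1125 without the second array at 30 °C in the cycle. Processome genes were lower in 56 of 66 (median -1.65), large-subunit factors in 66 of 75 (-1.56) and ribosomal protein genes in 50 of 80 (-0.89), with 0 higher in each. Of the Msn2/Msn4 targets 28 of 42 were higher and 0 lower (1.27), and of the glycogen genes 10 of 17 (0.84). Of the tricarboxylic acid cycle genes 1 of 13 was higher, with a median of 0.26, and of the respiratory chain genes 5 of 45 were higher and 1 lower, with a median of 0.11. Whether this differs from the comparison with constant 30 °C is the contrast of 30 °C in the cycle with constant 30 °C, where the medians were 0.53 and 0.50 but limma called 0 genes of either list (6 of 13 and 17 of 45 at an unadjusted p under 0.05). Some single genes that differed from constant 30 °C did not pass here. PHO84 had 28.6 and 25.1 at the rewarming point against 19.1 and 23.3 (0.34, adjusted p = 0.642), and DBP2, an RNA helicase, had 87.9 and 79.9 against 58.1 and 80.0 (0.30, adjusted p = 0.335). GRE1 had 115.3 and 100.1 against 131.4 and 136.2 (-0.32, adjusted p = 0.446). The seripauperin genes encode mannoproteins and resemble each other so closely that their probe sets may share signal. Of 10 measured, 7 were higher at the rewarming point than at 30 °C in the cycle (median 1.15), and against constant 30 °C their median was -0.22 and their differences ran between -0.72 and 0.17. For reference, 30 °C in the cycle differed from constant 30 °C in 68 genes (1.2%), 19 higher (0.336%) and 49 lower (0.866%), and the cooling point did in 404 (7.14%), 137 higher (2.42%) and 267 lower (4.72%).

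Over the cycle the medians of the ribosome and stress lists swung in opposite directions around constant 30 °C. The small-subunit processome stood at -0.18 at hour 0, 0.52 at hour 6, 0.99 at hour 9, 1.30 at hour 12, -1.78 at hour 18 and -0.51 at hour 21. Msn2/Msn4 targets stood at -0.18, -1.30, -1.31, -1.16, 1.10 and 0.18 at the same hours, glycogen genes at 0.00, -0.41, -1.21, -0.97, 1.28 and 0.42, and ribosomal protein genes at 0.09, 0.29, 0.40, 0.40, -0.81 and -0.32. In these 4 lists the rewarming median lay opposite in sign to the median at 12 °C, the sampled point before it. The maltose and sucrose genes had their highest median at 27.4 °C (1.39, against 1.19 at the rewarming point), and the respiratory chain changed little between the rewarming point (0.57) and 27.4 °C (0.54). These medians are relative levels with no test of their own.

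**Figure D4:**
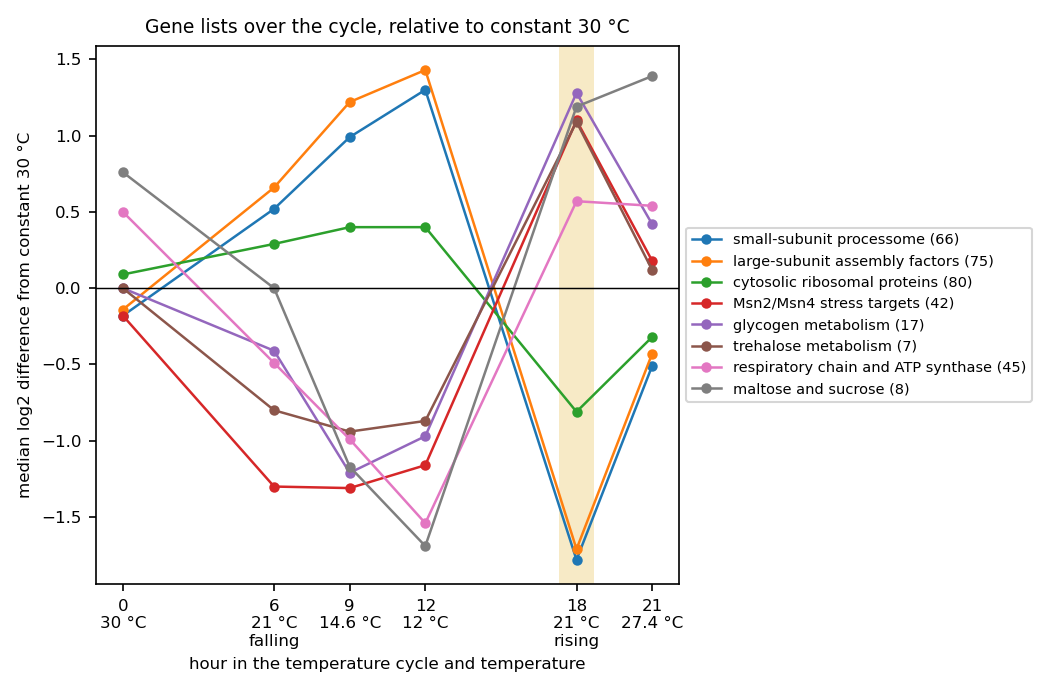
Median log2 difference from constant 30 °C (vertical axis) of 8 gene lists over the hours of the temperature cycle (horizontal axis, with the temperature under each hour); lines join the 6 sampled points and the shaded band marks the rewarming point. Ribosome lists drop below 0 at hour 18 (-1.78, -1.71 and -0.81) where the stress, glycogen and trehalose lists reach 1.09 to 1.28, and all of these lie closer to 0 at hour 21.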

How the data were processed

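Total RNA, 200 ng a sample, was amplified from its 3' ends, per the labels' protocols. The deposited values are linear probe set intensity with 1 decimal. The submitters' processing notes name RMA without a version, but some values are 0 and the mean after trimming 2% of probe sets at each end is 239.9 to 239.92 on all arrays. How the authors made the intensity is therefore not known, and it was used as deposited. No column belonged to a sample of another series.

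For the log2 scale, smaller values were raised to 1. Of 9335 probe sets, 6504 had 1 gene in the platform annotation, 328 several, 2443 none and 60 were controls. All 6504 matched the R64 gene table, used for names only. The brightest of several probe sets stood for its gene, which left 5656 genes. Among 315 genes with several sets, RPL7A, named after its values were seen, had sets called in opposite directions. The signals of 28 no-target control probe sets defined background, as their 95th percentile (log2 3.80). A gene under it on both arrays of a group has a bound only ("at least"): the other group's mean log2 signal minus background, as a fold.

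Genes were tested in limma 3.58.1 under R 4.3.3 (with statmod 1.5.0): 1 mean per group over 16 arrays in 8 groups, 8 residual degrees of freedom, empirical Bayes, Benjamini-Hochberg over all genes, two-sided, and was tested on simulated data. The array numbered 3 at 27.4 °C, the extra analytical duplicate of that point, was left out. Replicate numbers pair no samples by the labels. Differences between the numbered replicates correlated at 0.113 between the rewarming point and constant 30 °C. Among cycle groups the correlations ran between -0.4 and 0.441. The highest of all, 0.491, was between constant 30 °C and 14.6 °C in the cycle, and its cause was not tested. Alternatives were other normalizations, floors, filters, probe sets, priors, weights, limits, a replicate block and leaving out arrays. The 50 gene lists, the comparisons and the named genes were chosen with earlier results of these data known, and lists carry no test. Named were the 12 largest rises and 12 largest falls, up to 3 of each per list, index and marker genes, and the 5 largest of each in the other comparisons. The text gives a selection. Promoter and protein sequences were not used here.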

Additional observations from a re-analysis of the deposited data

Results flagged for a closer look

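Between the rewarming point and the cooling point, both at 21 °C, the direct contrast called 1915 genes, 860 higher and 1055 lower at the rewarming point. This contrast is also the test of whether the difference from constant 30 °C was the same at both points.

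Outside the named genes, 2771 probe sets with no single gene in the annotation were tested in the same way. Of these, 250 passed between the rewarming point and constant 30 °C (9.02%), 81 higher and 169 lower, against 22.4% of the named genes.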

How the results depend on the processing

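Against constant 30 °C, 1269 genes passed. The count was 1997 with array weights and 698 at an adjusted p under 0.01, and 679 to 864 with 1 of the 4 arrays left out, where the lone array is assumed to vary like the other groups. Against the cooling point, 1915 became 1254 at an adjusted p under 0.01 and 1290 to 1362 with an array left out. Against 30 °C in the cycle, 1234 became 606 at an adjusted p under 0.01, 370 in a fit to those 4 arrays alone, and 589 to 1125 with an array left out. The cause of these differences was not tested. All other alternatives stayed within 1.5 times, but centring and quantile normalization moved the median gene by 0.16 on the log2 scale, and the share of higher genes against constant 30 °C was 39.6%, with 53.5% after centring. The replicate block gave 1263, 1938 and 1229 genes, and the numbers pair no samples by the labels.

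Of 221 named genes 181 passed. Of these, 86 stayed past the threshold in all 16 alternatives, 2 (ETP1 and YSF3) in the 15 that keep dim genes, and 93 did not in at least 1, of which 45 lost the call only without an array or at a stricter limit and 29 lost it after centring or quantile normalization; none reversed. Signals near background limit what dim genes show: 73 genes passed with both rewarming arrays under background, 22 with both constant 30 °C arrays under it and 24 with both groups under it.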

Other observations

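Of 91 transfer RNA genes 34 were lower (37.4%) and 1 higher (1.1%) at the rewarming point than at constant 30 °C, against 13.6% and 8.88% of all genes. Of 57 small nucleolar RNA genes 6 were higher (10.5%) and 7 lower (12.3%), shares near those of all genes. The RNA was amplified from its 3' ends, and how well this captures mature transfer or small nucleolar RNA was not tested. What the probe sets of these genes read is therefore uncertain. Of 5486 protein-coding genes 492 were higher and 724 lower. The correlation of the difference with gene length was 0.004 (Spearman's rho across 5169 genes, which are not independent).

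Among genes reported in cold-grown yeast, 5 of 15 were higher and 3 lower, and 2 of the higher ones passed without the first constant 30 °C array or without the second rewarming array. Of 67 amino acid biosynthesis genes 8 were higher and 4 lower (median 0.26), and 3 to 6 of the higher ones passed with 1 of the 4 arrays left out. PRO1, of proline synthesis, had 140.2 and 110.5 at the rewarming point against 443.4 and 417.3 (-1.79 ± 0.36, adjusted p = 0.00399), and SER2, of serine synthesis, had 56.7 and 55.6 against 162.0 and 208.2 (-1.71 ± 0.30, adjusted p = 0.00177). The drug exporter gene PDR5 had 157.5 and 159.9 against 535.4 and 393.4 (-1.53 ± 0.28, adjusted p = 0.00217). Of 34 cell wall genes 4 were higher and 2 lower, 1 or 2 of the higher ones passed with an array left out, and UTR2, which links chitin to glucan, had 104.7 and 122.7 against 245.4 and 257.5 (-1.15 ± 0.24, adjusted p = 0.00497). Higher and lower were 33.3% and 20% of the genes reported in cold-grown yeast, against 8.88% and 13.6% of all genes. The shares were 11.9% and 5.97% in amino acid biosynthesis, and 11.8% and 5.88% in cell wall genes. Of 20 meiosis and sporulation genes, 10 of which lay above background on average, 2 were higher and 3 lower, shares near those of all genes. With signals under 12 set to 12 the meiosis and sporulation counts were 0 and 2.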
